A study of Mus musculus with 16 samples.

Results

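Oligodendrocyte precursor and lineage factors were examined in spinal cord RNA of transgenic mice through 10 genes, *Pdgfra*, *Cspg4*, *C1ql1*, *Lhfpl3*, *Cspg5*, *Olig1*, *Olig2*, *Sox10*, *Nkx2-2* and *Myrf*. The genes were chosen by name as markers of the precursor cell and transcription factors of its lineage, and all 10 were among the 18167 genes of the expression table. The 16 mice were male by their labels and formed 4 groups, wild-type young (WY, 3 mice), mutant young (MY, 3 mice), wild-type old (WO, 5 mice) and mutant old (MO, 5 mice). Mutant mice belong to the line Tg(Prnp-PFN1*G118V)838Kiaei on the C57BL/6N background and carry human profilin1 with the G118V change, which causes a motor neuron disease of the type of amyotrophic lateral sclerosis. Wild-type mice belong to the line Tg(Prnp-PFN1)850Kiaei on the same background and carry the unchanged human profilin1. All 4 groups therefore carry a human transgene under the mouse prion promoter, which is active in many cell types, and no mouse without a transgene was included. The WY and MY mice were 50 days old, before symptoms. The MO mice were at end-stage, when a mouse laid on its side fails to right itself within a set time, at 175 to 245 days, and the WO mice were 190 to 294 days old. Libraries were made in 2 batches. All young mice and 3 mice each of WO and MO were in batch 1, and the other 2 WO mice, both 294 days old and older than every MO mouse, and 2 MO mice were in batch 2.

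Oligodendrocyte precursor cells divide and migrate throughout the adult spinal cord and give rise to the oligodendrocytes that wrap axons in myelin. They carry the receptor for platelet-derived growth factor encoded by *Pdgfra* and the proteoglycan NG2 encoded by *Cspg4* on their surface, and lose both when they mature. The basic helix-loop-helix factors *Olig1* and *Olig2* and the SOX factor *Sox10* are expressed in precursors and in mature oligodendrocytes alike, *Nkx2-2* rises at the start of differentiation, and *Myrf* switches on and maintains the myelin genes in mature cells. The first genes thus mark the precursor, *Olig1*, *Olig2* and *Sox10* the whole lineage, and *Nkx2-2* and *Myrf* its later steps.

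Values are log2(1 + FPKM), where FPKM is the number of fragments of a gene scaled to transcript length and library size, after the adjustment for batch that the authors made. The number of fragments behind each value is unknown, so the spread between mice is the only error that can be given. The female-specific transcript *Xist* was at 3.21 in MO5 and at -0.36 to 0.37 elsewhere (15 mice). *Ddx3y*, a gene of the Y chromosome, was at 1.95 in MO5 and at 4.06 to 4.74 elsewhere, so that library goes against its male label. For the 10 genes, each result that rests on MO and has an FDR at or below 0.05 is given with and without MO5, and leaving MO5 out moved none of their other results in MO past that threshold. The lists of companions and cell types are given with MO5. Whole spinal cord was sequenced, so that fewer cells of a type and less RNA per cell cannot be told apart in any of the values.

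All 10 genes were detected in every mouse, with no value at or below 0. Averaged over the 16 mice after returning the values to FPKM, *Olig1* had the highest level (132 FPKM) and ranked above 96.9% of all genes by mean log2 value. *Sox10* (49.2 FPKM), *Myrf* (43.7), *Lhfpl3* (28.6), *Cspg5* (26.8) and *Olig2* (23.9) followed, and then *C1ql1* (12.0), *Pdgfra* (8.83), *Nkx2-2* (5.63) and *Cspg4* (3.34). Neighbours in this order were separated in 16 of 16 mice for *Olig1* and *Sox10*, *Myrf* and *Lhfpl3*, *Olig2* and *C1ql1*, and *Pdgfra* and *Nkx2-2*. *Sox10* exceeded *Myrf*, *Lhfpl3* exceeded *Cspg5* and *Cspg5* exceeded *Olig2* in 12 mice each, so the levels of these neighbours were not separated from each other. FPKM is a level per transcript length, which allows genes to be compared, but *Lhfpl3*, *Nkx2-2*, *Olig1* and *Pdgfra* share exon sequence with genes of the opposite strand. The exons of *A930003O13Rik* cover 17.6% of the exon bases of *Lhfpl3*, those of *Nkx2-2os* 9.67% of *Nkx2-2*, those of *Gm15966* 7.26% of *Olig1*, and those of *Gm42802* and *Gm42803* 4.55% and 1.66% of *Pdgfra*. The library kit keeps strand information, but whether it was used for counting is not given in the sources used here, and the values of these genes are uncertain to that extent.

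**Figure D1:**
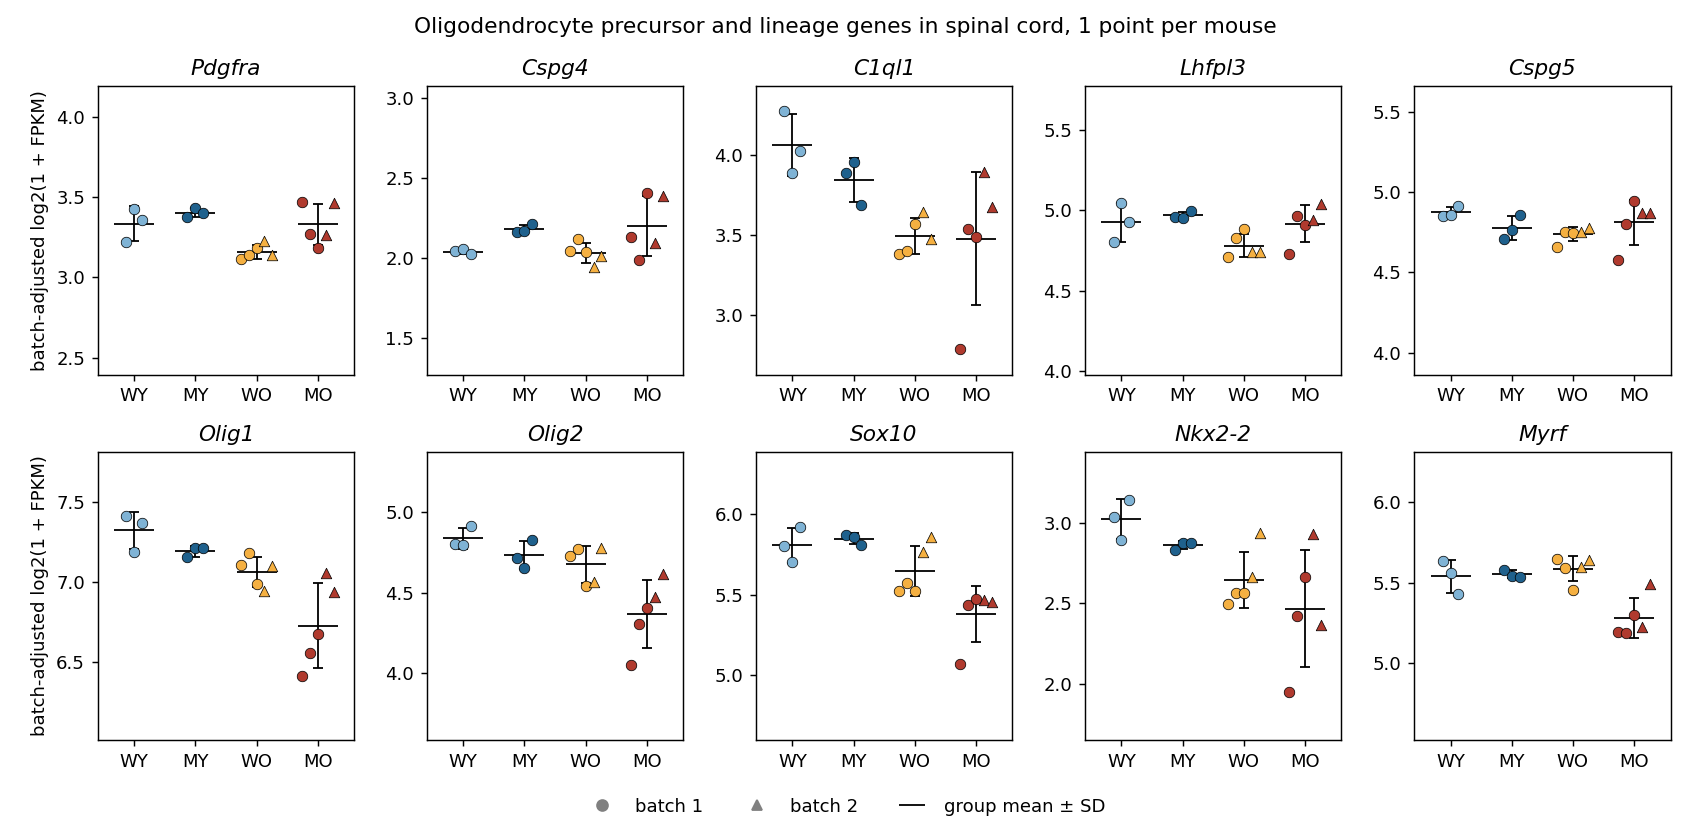
Batch-adjusted log2(1 + FPKM) of the 10 genes (vertical axis, each panel spanning the same number of log2 units) in the 4 groups (horizontal axis). Points are single mice, circles for batch 1 and triangles for batch 2, and black lines give the group mean ± SD (n = 3 for WY and MY, n = 5 for WO and MO). In the lower row, the MO values of *Sox10* (5.06 to 5.47) lie below those of all other mice, whereas in the upper row the MO and young mice overlap for *Pdgfra*.

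A gene was called differentially expressed by limma with an FDR at or below 0.05 over all 18167 genes and a fold change of at least 1.5, and the FDR alone was also followed, since the differences of these 10 genes were smaller than 1.5-fold. Between MY and MO, which asks what changes in mutant mice between the presymptomatic and the end-stage age, 0 of the 10 were called, against 4.9% of all genes, and 4 had an FDR at or below 0.05, all lower in MO (*Olig1*, *Olig2*, *Sox10* and *Myrf*). Over all genes 25.6% had such an FDR and 12.5% were lower with it. Between WO and MO, which compares genotypes at the older age, 0 were called (4.6% of all genes) and 3 had an FDR at or below 0.05, all lower in MO (*Olig1*, *Olig2* and *Myrf*), against 27.9% of all genes in either direction and 12.9% lower. The shares of the 10 genes that were lower (4 of 10 and 3 of 10) lie above the shares of all genes that were lower, but as the genes were chosen with results known, nothing particular to them is read from this. Between WY and WO, which follows age in wild-type mice, 0 were called (0.253%) and 1 had an FDR at or below 0.05, *C1ql1*, which was lower in WO (1.12% of all genes in either direction, 0.892% lower). From WY to MY, which compares genotypes before symptoms, 0 were called and 0 had an FDR at or below 0.05, and by both rules 0.0055% of all genes were past the threshold. Without adjustment, limma gave p below 0.05 for 4 of the 10 genes from MY to MO, 6 from WO to MO, 5 from WY to WO and 2 from WY to MY, against 36.7%, 38.5%, 13.5% and 7.16% of all genes. By limma's treat, which asks whether a change exceeds 1.2-fold, none of the 10 had an FDR at or below 0.05 in these comparisons or for the difference of the age effects, and p was below 0.05 before adjustment for *Sox10* from MY to MO and *C1ql1* from WY to WO. Ranges over alternatives leave treat out, since it tests another question. MY vs. MO and WO vs. MO share the MO mice, and their values are given side by side. Where mice of 1 group are said to lie below or above others, this describes the values only. The share of all genes with such a separation was not counted.

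The median log2 fold change of the 5 transcription factors was -0.39 from MY to MO and -0.31 from WO to MO, with 5 of 5 values negative in both. For the 5 surface and secreted genes it was -0.05 and 0.14, with 3 of 5 values negative from MY to MO and 1 of 5 from WO to MO, and the signs of *Cspg4* and *Cspg5* from MY to MO and of *C1ql1* from WO to MO turned in some alternatives. The median over all genes was 0.0047 from MY to MO, 0.00035 from WO to MO and 0.0018 from WY to WO. In WO relative to WY the medians were -0.16 for the transcription factors and -0.15 for the surface and secreted genes. Since all MY mice were in batch 1, MO minus MY was also taken within that batch. It was -0.64 for *Olig1*, -0.48 for *Olig2*, -0.52 for *Sox10*, -0.52 for *Nkx2-2* and -0.33 for *Myrf*. For *C1ql1* it was -0.57, for *Lhfpl3* -0.10, for *Pdgfra* -0.09, for *Cspg4* -0.005 and for *Cspg5* -0.002.

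**Figure D2:**
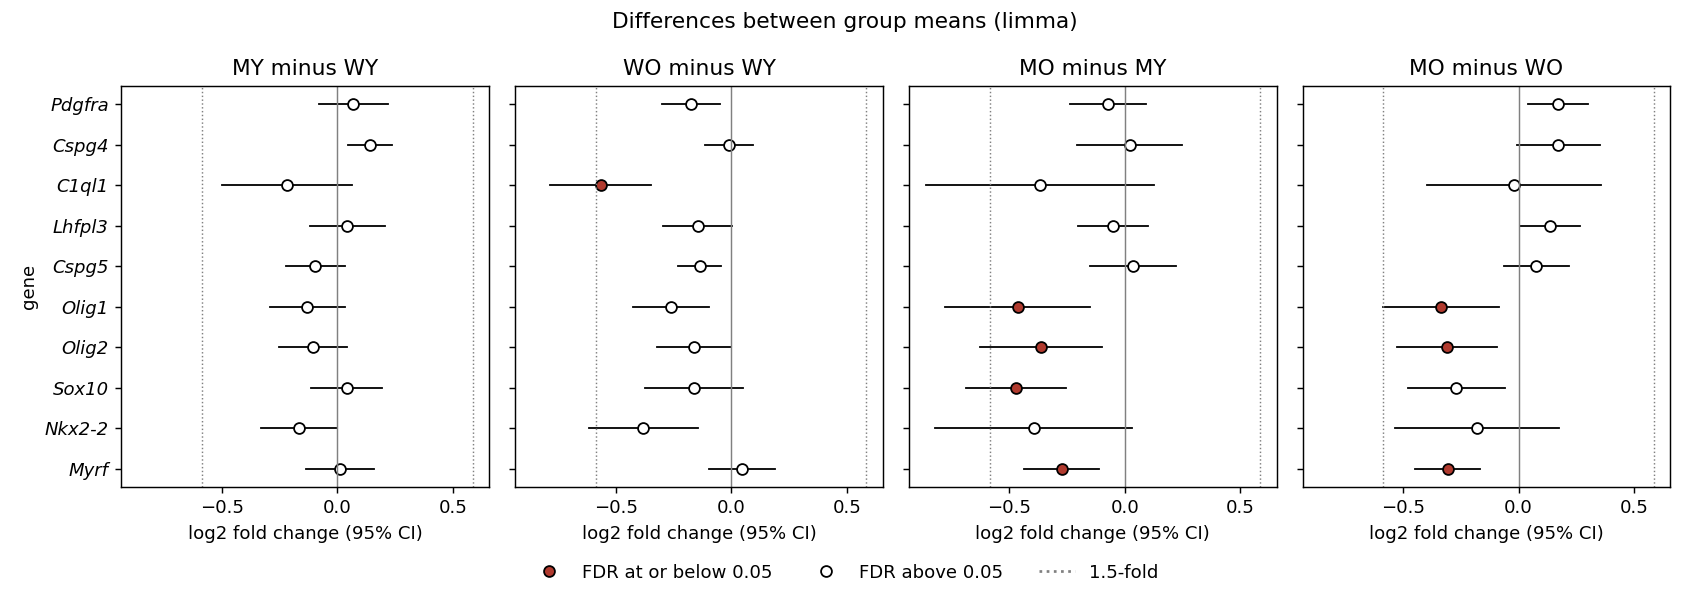
Log2 fold changes of the 10 genes (horizontal axis) with 95% confidence intervals from limma, for the 4 comparisons. Filled points have an FDR at or below 0.05 over all genes, and dotted lines mark a 1.5-fold difference, which no point reaches. The filled points are *C1ql1* in WO minus WY, *Olig1*, *Olig2*, *Sox10* and *Myrf* in MO minus MY, and *Olig1*, *Olig2* and *Myrf* in MO minus WO.

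*Sox10*, a SOX-family factor needed for the maturation of oligodendrocytes, was at 5.87, 5.86 and 5.81 in the MY mice and at 5.06, 5.43, 5.47, 5.47 and 5.46 in the MO mice. It was at 5.81, 5.70 and 5.92 in the WY mice and at 5.52, 5.57, 5.52, 5.77 and 5.86 in the WO mice. All 5 MO mice were thus below every other mouse, with MO1 far under the other 4. In MO relative to MY the log2 fold change was -0.47 ± 0.09 (SE, FDR 0.0082), and it was -0.49 (FDR 0.014) without MO5 and -0.39 (FDR 0.00065) without MO1. The FDR was at or below 0.05 in the 16 alternatives that test for any change (0.00027 to 0.040), but 0.376 by treat against 1.2-fold. In MO relative to WO the log2 fold change was -0.27 ± 0.10 with an FDR of 0.0585. This second FDR fell to 0.0257 with batch as a term of the fit, and ranged from 0.0096 to 0.261 over 19 alternatives. Within batch 1 the difference between WO and MO was -0.21, and within batch 2 it was -0.35. The 2 WO mice of batch 2 (5.77 and 5.86) lay within the range of the young mice, and the 3 of batch 1 below it.

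*Olig1*, a factor that acts mainly in maturation and repair of myelin, was at 7.15, 7.21 and 7.21 in the MY mice and at 6.42, 6.56, 6.67, 7.06 and 6.94 in the MO mice. The WY mice were at 7.41, 7.19 and 7.37, and the WO mice at 7.10, 7.18, 6.99, 6.95 and 7.10. The MO mice of batch 1 were below all others, whereas MO4 and MO5 of batch 2 lay within or close to the WO range. The log2 fold change was -0.46 ± 0.14 from MY to MO (FDR 0.0387) and -0.33 ± 0.11 from WO to MO (FDR 0.0499). Between WO and MO the difference was -0.54 within batch 1 and -0.03 within batch 2. Without MO5 the FDR was 0.034 from MY to MO and 0.0362 from WO to MO. The FDR from MY to MO rose above 0.05 without MO2 (0.0771), MO3 (0.0776), MY1 (0.101), MY2 (0.112) or MY3 (0.117). It was also above 0.05 with a pseudocount of 0.1 in place of 1 (0.0523), within a range of 0.0017 to 0.117. From WO to MO it did so without MO1 (0.0871), MO2 (0.112), MO3 (0.098), WO1 (0.0892), WO2 (0.104), WO3 (0.066), WO4 (0.0602) or WO5 (0.0997). With that pseudocount it was 0.0622, within a range of 0.0098 to 0.112. The log2 fold change of *Olig1* from WO to MO was between -0.54 and -0.26 in the 19 alternatives.

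*Olig2*, required for the specification of motor neurons and oligodendrocytes in development and kept in the whole oligodendrocyte lineage, was at 4.72, 4.65 and 4.83 in the MY mice and at 4.05, 4.30, 4.40, 4.47 and 4.61 in the MO mice. It was at 4.80, 4.80 and 4.91 in the WY mice and at 4.73, 4.77, 4.54, 4.56 and 4.78 in the WO mice. Each MO mouse was below each young mouse, and MO5 alone reached the WO range. The log2 fold change was -0.36 ± 0.12 from MY to MO (FDR 0.0492) and -0.31 ± 0.10 from WO to MO (FDR 0.0386). Within batch 1 WO and MO differed by -0.43 and within batch 2 by -0.13, where the groups overlapped. Without MO5 the FDR was 0.0235 and 0.0157. From MY to MO the FDR rose above 0.05 without MO2 (0.0942), MO3 (0.0812), MO4 (0.0532), MY1 (0.129), MY2 (0.0906) or MY3 (0.17). With a pseudocount of 0.1 it was 0.0664, within a range of 0.0070 to 0.170. For MO against WO it rose above 0.05 without MO2 (0.0818), MO3 (0.0637), WO1 (0.0742), WO2 (0.0828) or WO5 (0.0895). The range there was 0.011 to 0.0895.

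*Nkx2-2*, a homeodomain factor of the step from precursor to myelinating cell, was at 3.04, 2.90 and 3.14 in the WY mice and at 2.83, 2.87 and 2.88 in the MY mice. It was at 2.50, 2.56, 2.56, 2.66 and 2.94 in the WO mice and at 1.95, 2.42, 2.67, 2.93 and 2.37 in the MO mice. The MO values spread over almost a whole log2 unit, with MO1 the lowest of all mice. From WY to WO the log2 fold change was -0.38 ± 0.10 (FDR 0.141), and the FDR was at or below 0.05 without WO5 (0.0485) and with the mice of batch 1 only (0.0444), within a range of 0.044 to 0.383. From WY to MY it was -0.16 ± 0.07 (FDR 0.695). From MY to MO the log2 fold change was -0.39 ± 0.19 (FDR 0.164). That FDR was 0.039 without MO4 and 0.0241 with all groups and batch in 1 fit, within a range of 0.024 to 0.311.

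*Myrf*, the membrane-bound factor that activates the myelin genes, was at 5.63, 5.56 and 5.43 in the WY mice, at 5.58, 5.54 and 5.54 in the MY mice and at 5.65, 5.59, 5.45, 5.60 and 5.64 in the WO mice. It was at 5.19, 5.19, 5.30, 5.22 and 5.49 in the MO mice. The 3 other groups thus lay together, and 4 of the 5 MO mice were below all of them, with MO5 within the WO and WY ranges and below the MY mice. Between WO and MO the difference was -0.34 within batch 1 (3 mice per group) and -0.26 within batch 2 (2 per group). From WO to MO the log2 fold change over all mice was -0.31 ± 0.06 (FDR 0.0048). Without MO5 it was -0.36 (FDR 0.00068), and in the 19 alternatives that test for any change the FDR was at or below 0.05 (0.00068 to 0.0234), but it was 1 by treat against 1.2-fold. In MO relative to MY it was -0.27 ± 0.07 (FDR 0.0243), and -0.33 without MO5 (FDR 0.0023). That FDR rose above 0.05 without MY1 (0.0941), MY2 (0.0703) or MY3 (0.0739), where 2 MY mice were left, within a range of 0.0023 to 0.0941. Between WY and WO the log2 fold change was 0.05 ± 0.06 (FDR 0.846), with a 95% confidence interval of -0.10 to 0.19.

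Whether the change with age differed between mutant and wild-type mice was tested as the difference (MO - MY) - (WO - WY) on all 16 mice. By FDR and fold change 0 of the 10 genes were called, against 5.61% of all genes, and 1 had an FDR at or below 0.05 and was negative, *Myrf*, against 17.7% of all genes in either direction and 7.19% with a negative difference. Without adjustment, limma gave p below 0.05 for 2 genes, *Myrf* and *Sox10*, against 31.1% of all genes. The difference for *Myrf* was -0.32 ± 0.10 (FDR 0.0352), and it was -0.37 (FDR 0.0050) without MO5. Its FDR was above 0.05 without MO2 (0.0589), MO4 (0.0531), MY1 (0.086), MY2 (0.0626), MY3 (0.0663), WO1 (0.054), WO2 (0.0513), WO4 (0.055), WO5 (0.0607) or WY3 (0.0961), and, by a small margin, without MO3 (0.05005) and with a pseudocount of 0.1 (0.0518), within a range of 0.0050 to 0.0961. For *Sox10* the difference was -0.31 ± 0.14 (FDR 0.144), and for *Olig1* it was -0.20 ± 0.16 (FDR 0.444), with -0.41 (FDR 0.0383) among the mice of batch 1. All 5 transcription factors had a negative difference and all 5 surface and secreted genes a positive one, of at most 0.20 (*C1ql1*, FDR 0.656). This split does not hold throughout, since *Nkx2-2* (-0.02) and *Cspg4* (0.03) lay near 0 and changed sign in 4 and 5 of 23 alternatives (to at most 0.11 and at least -0.04). Among the latter, *Cspg5* reached an FDR of 0.021 without MO1, with a difference of 0.23, against 0.17 (FDR 0.226) with all mice and a range of FDR from 0.021 to 0.441.

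*Pdgfra*, the receptor through which platelet-derived growth factor keeps precursors dividing, was at 3.22, 3.43 and 3.36 in the WY mice and at 3.38, 3.43 and 3.40 in the MY mice. It was at 3.12, 3.14, 3.18, 3.22 and 3.14 in the WO mice and at 3.47, 3.27, 3.18, 3.27 and 3.46 in the MO mice. The WO mice were the lowest group, and the MO mice covered the range of the young mice. Between WO and MO the log2 fold change was 0.17 ± 0.06 with an FDR of 0.0531, just above the threshold, with 0.16 within batch 1 and 0.18 within batch 2. The FDR was 0.111 without MO5, 0.0235 without MO3 and 0.0331 with all groups in 1 fit, within a range of 0.024 to 0.242. In WO relative to WY the log2 fold change was -0.18 ± 0.05 (FDR 0.197), and from MY to MO it was -0.07 ± 0.07 (FDR 0.525). MO1, which was the lowest of the MO mice for 7 of the 10 genes, had the highest *Pdgfra* value of all 16 mice. Fibroblasts of the meninges also express *Pdgfra*, and pericytes also express *Cspg4*.

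*Cspg4* was at 2.04, 2.06 and 2.02 in the WY mice, at 2.16, 2.17 and 2.21 in the MY mice, at 2.04, 2.12, 2.04, 1.94 and 2.01 in the WO mice and at 2.13, 1.99, 2.40, 2.09 and 2.39 in the MO mice. The MY mean was above the WY mean by 0.14 ± 0.04 (3 mice each), but the FDR was 0.583. In MO relative to WO the log2 fold change was 0.17 ± 0.08 (FDR 0.148), with 0.11 within batch 1 and 0.26 within batch 2. The spread among MO mice (SD 0.19, n = 5) exceeded that in WO (SD 0.06, n = 5).

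*C1ql1*, a secreted protein of the C1q family made by precursors, was at 4.27, 3.89 and 4.03 in the WY mice and at 3.89, 3.96 and 3.69 in the MY mice. It was at 3.38, 3.40, 3.57, 3.65 and 3.48 in the WO mice and at 2.79, 3.54, 3.49, 3.90 and 3.67 in the MO mice. Every WO mouse was below every young mouse, and MO ranged from the lowest value of all mice to the level of the young. From WY to WO the log2 fold change was -0.57 ± 0.09 (FDR 0.0408), just under 1.5-fold. The FDR rose above 0.05 without WO1 (0.0934), WO2 (0.097), WO3 (0.0812), WO5 (0.0863), WY1 (0.084) or WY3 (0.134). It also did so with batch 1 only (-0.61, FDR 0.0745), a pseudocount of 0.1 (0.0679) or all groups in 1 fit (0.152). The range was 0.026 to 0.152. From MY to MO the log2 fold change was -0.37 ± 0.22 (FDR 0.264, and 0.0452 with all groups and batch in 1 fit, within a range of 0.0452 to 0.482), but -0.20 without MO1 (FDR 0.227). From WO to MO it was -0.02 ± 0.17 (FDR 0.955), and 0.15 without MO1 (FDR 0.241), with -0.18 within batch 1 and 0.22 within batch 2 for all mice.

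*Lhfpl3*, a tetraspan membrane protein enriched in precursors, ranged from 4.71 (WO1) to 5.04 (WY2), and *Cspg5*, the proteoglycan neuroglycan C, which neurons make as well, from 4.58 (MO1) to 4.95 (MO3). For MO against WO *Lhfpl3* had a log2 fold change of 0.14 ± 0.06 (FDR 0.115), with 0.06 within batch 1 and 0.25 within batch 2. The FDR was 0.0165 without MO1, within a range of 0.016 to 0.684, and 0.229 without MO5. *Cspg5* had 0.08 ± 0.06 (FDR 0.423), and 0.13 without MO1 (FDR 0.033), within a range of 0.033 to 0.762. Between WY and WO *Cspg5* had a log2 fold change of -0.14 ± 0.04 (FDR 0.184). Both genes differed by at most 0.15 in absolute value in each of the 4 comparisons.

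The companions of these genes were described by lists. Of 18 precursor companions, which include matrix proteins, SOX factors and the receptor *Gpr17* of cells committed to differentiation, 6 had an FDR at or below 0.05 from MY to MO, all lower. Among these 6 were *Dpysl3* (-0.21 ± 0.05, FDR 0.0153) and *Nxph1* (-0.20 ± 0.05, FDR 0.0179), which are of none of these kinds. Which cells account for the values of the list was not tested. Counts by FDR in this and the following lists stand against 25.6% of all genes from MY to MO, 27.9% from WO to MO, 1.12% from WY to WO and 17.7% for the difference of the age effects. Before adjustment the shares were 36.7%, 38.5%, 13.5% and 31.1% in that order, and 7.16% from WY to MY. By fold change as well, *Tnr*, which encodes the matrix protein tenascin-R (-0.81 ± 0.09, FDR 0.00072), and *Gpr17* (-0.74 ± 0.22, FDR 0.039) were called from MY to MO. From WO to MO 4 were higher and 1 lower by FDR, with no gene past 1.5-fold. In WO relative to WY *Gpr17* (-1.07 ± 0.13, FDR 0.0129) and *Bmp4* (-0.62 ± 0.11, FDR 0.0461), a secreted inhibitor of differentiation, fell. The median log2 fold change of the list was -0.16 from MY to MO, -0.02 from WO to MO and -0.14 from WY to WO. Its most abundant gene, the sulfatase gene *Sulf2*, averaged 46.9 FPKM. In sum over the list, the MO mice held 191 to 221 FPKM, the WO mice 188 to 206, the MY mice 227 to 233 and the WY mice 201 to 243.

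Of 16 companions of differentiation, 15 were in the table. Between MY and MO 8 were lower and 1 higher by FDR, and *Ugt8a*, the enzyme of galactocerebroside synthesis (-1.53 ± 0.31, FDR 0.00876), *Enpp6*, which marks newly formed oligodendrocytes (-1.13 ± 0.18, FDR 0.0031), and *Gpr37*, a receptor of maturing oligodendrocytes (-0.65 ± 0.17, FDR 0.0265), passed the fold change as well. Between WO and MO 5 were lower and 3 higher, and *Ugt8a* (-0.78 ± 0.25, FDR 0.0436) and *Gpr37* (-0.63 ± 0.15, FDR 0.00896) were called. *Ugt8a* also fell from WY to WO (-0.87 ± 0.10, FDR 0.0129), with 2 genes lower and none higher by FDR. The median log2 fold change was -0.20 from MY to MO, -0.13 from WO to MO and -0.12 from WY to WO. *Plekhb1* was the most abundant gene of the list (791 FPKM), and the mean of *Olig3* was under 1 FPKM.

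Of the 11 myelin genes, the products of the mature cell, 5 fell and none rose by FDR from MY to MO. Those past 1.5-fold included *Mal* (-0.99 ± 0.16, FDR 0.0027), *Mog* (-0.93 ± 0.20, FDR 0.0118) and *Cnp* (-0.60 ± 0.14, FDR 0.0161). From WY to WO 7 fell, among them *Opalin* (-1.26 ± 0.16, FDR 0.0145) and *Cldn11* (-0.86 ± 0.06, FDR 0.0011). In MO relative to WO 2 were lower and 1 higher. The list medians were -0.59, -0.67 and -0.21 for MY to MO, WY to WO and WO to MO. *Mbp*, the most abundant gene of the list, was read at 39.9 FPKM in WO4 and at 19069 in WO5, both of batch 2, against 5480 to 6250 in the WO mice of batch 1, and at 17724 and 18060 in the MO mice of batch 2, against 4571 to 4838 in those of batch 1. Values so far apart within 1 group and batch are in doubt, and the mean level of *Mbp* with them. Without *Mbp* the list summed to 7236 to 7728 FPKM in the WY mice, 7030 to 7360 in the MY mice, 4223 to 5807 in the WO mice and 2961 to 5105 in the MO mice.

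Of 12 inhibitors of precursor differentiation, which share *Gpr17* and *Bmp4* with the precursor companions, 1 was higher and 3 lower by FDR from MY to MO, and 3 higher and 2 lower from WO to MO (all genes, 25.6% and 27.9% in either direction). *Sox9*, an early glial factor that astrocytes keep, was called from WO to MO (0.69 ± 0.07, FDR 5.15e-05). The medians were -0.05, 0.09 and -0.18 from MY to MO, WO to MO and WY to WO. *Id2*, a dominant negative helix-loop-helix protein, was the most abundant gene (86.0 FPKM).

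Of 20 growth factors and receptors of the lineage, 4 were higher and 5 lower by FDR from MY to MO, and 5 higher and 8 lower from WO to MO, where 25.6% and 27.9% of all genes had such an FDR. The ligands *Igf1* (1.37 ± 0.21, FDR 0.0023), *Cntf* (1.03 ± 0.13, FDR 0.0010) and *Fgf2* (0.79 ± 0.16, FDR 0.0083) rose from MY to MO, while the neuregulin receptor *Erbb3* (-0.73 ± 0.06, FDR 0.00029) and the hedgehog receptor *Ptch1* (-0.60 ± 0.05, FDR 0.00031) fell. For MO against WO *Igf1* (1.54 ± 0.18, FDR 0.00013), *Cntf* (1.12 ± 0.12, FDR 8.6e-05) and *Fgf2* (0.78 ± 0.19, FDR 0.0114) rose and the neuregulin gene *Nrg1* (-0.69 ± 0.07, FDR 7.53e-05) fell. Between WY and WO 1 of the 20 was higher by FDR, below 1.5-fold. The list medians were 0.03, 0.06 and 0.08 from MY to MO, WO to MO and WY to WO, and *Fgfr3* was the most abundant gene (68.9 FPKM).

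Of 10 cell cycle genes, which any dividing cell expresses, 7 were higher in MO than in WO by FDR, and *Ccnd1*, the cyclin of entry into the cycle, passed 1.5-fold (0.60 ± 0.11, FDR 0.0027). In MO relative to MY 10 of 10 had a positive log2 fold change and none an FDR at or below 0.05. Before adjustment limma gave p below 0.05 for 6 of them, against 36.7% of all genes. In WO relative to WY 2 were lower by FDR. The medians were 0.33 from WO to MO, 0.26 from MY to MO and -0.15 from WY to WO. *Pcna* was the most abundant gene (51.4 FPKM), and *Mki67*, *Top2a*, *Cdk1* and *Ccnb1* averaged under 1 FPKM. The list summed to 75.3, 97.3, 94.2, 94.6 and 90.1 FPKM in MO1 to MO5. It summed to 68.3 to 75.0 in the WO mice, 72.7 to 77.8 in the MY mice and 75.8 to 77.5 in the WY mice. Which cells divide cannot be told from bulk tissue, and a link to the genes of any cell type was not tested.

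From WY to MY, limma gave an FDR at or below 0.05 for 0 of the 139 genes of the 14 lists, and p below 0.05 for 19 before adjustment, against 7.16% of all genes. The age effect of mutant minus that of wild-type mice had a median of 0.45 over the cell cycle genes (5 of 10 positive by FDR), of which *Top2a* passed 1.5-fold (0.73 ± 0.16, FDR 0.0052). It was 0.27 for the inhibitors (3 positive and 1 negative by FDR), 0.09 for the precursor companions (2 positive), 0.01 for the growth factors and receptors (2 positive and 3 negative), -0.12 for the companions of differentiation (2 positive and 1 negative) and -0.15 for the myelin genes (none by FDR, 3 before adjustment by limma), against 0.0073 over all genes. *Cntf* (1.44 ± 0.18, FDR 0.00013) and *Igf1* (1.42 ± 0.25, FDR 0.0012) had the positive differences past 1.5-fold among the growth factors and receptors, and *Ptch1*, *Nrg1* and *Erbb3* the negative ones.

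Markers of other cell types moved with the same comparisons. Of 9 microglia markers 8 were higher by FDR from MY to MO and 8 from WO to MO, and the most abundant, the complement gene *C1qa*, rose by 2.82 ± 0.21 from WO to MO. Their summed level was 768, 1116, 1319, 747 and 791 FPKM in MO1 to MO5, against 178 to 282 in the WO mice, 213 to 236 in the MY mice and 215 to 238 in the WY mice. Of 8 astrocyte markers 4 and 6 were higher, with *Gfap* the most abundant (1.60 ± 0.10 from WO to MO). Their sum was 3454 to 4475 FPKM in MO and 1920 to 2510 in the other mice. From WY to WO 2 of the 8 were lower by FDR, *Gfap* (-0.54 ± 0.09, FDR 0.0345) and *Aqp4* (-0.65 ± 0.10, FDR 0.0281). Of 8 neuron markers 5 were lower in both comparisons, with the sum at 2247 to 2533 FPKM in MO and 2796 to 3368 in the other mice, and *Snap25* the most abundant. Of 6 motor neuron markers 4 were lower in both, with the sum at 102 ± 10.2 FPKM (SD, n = 5) in MO and 129 ± 11.1 (n = 5) in WO, and *Prph* the most abundant. The part of these shifts in the lower values of *Olig1*, *Olig2*, *Sox10* and *Myrf* in MO was not tested.

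For *Pdgfra* and *Cspg4*, the lists of vascular and connective tissue cells are given as well. Of 6 pericyte markers 1 was higher and 2 lower by FDR from WO to MO and 1 higher and 1 lower from MY to MO, with *Vtn* the most abundant. The list summed to 36.3 to 59.0 FPKM in MO and 48.4 to 69.4 in WO. Of 7 fibroblast markers none had an FDR at or below 0.05 in the 4 comparisons, and before adjustment limma gave p below 0.05 for 1 of them from MY to MO, 0 from WO to MO, 1 from WY to WO and 1 from WY to MY. Their sum was 31.6 to 42.1 FPKM in MO and 28.5 to 43.8 in WO, *Mgp* was the most abundant, and *Col3a1* and *Lum* averaged under 1 FPKM. Of 6 endothelial markers 5 were lower by FDR from WO to MO and none had such an FDR from MY to MO, WY to WO or WY to MY, and before adjustment limma gave p below 0.05 for 6 lower from WO to MO, 1 lower from MY to MO, 2 higher from WY to WO and 5 lower from WY to MY (median -0.19), with the sum at 43.6 to 51.1 FPKM in MO and 48.9 to 71.0 in WO and *Cldn5* the most abundant. Of 7 Schwann cell markers, which share *Sox10* with oligodendrocytes, *Egr2* alone was higher, from MY to MO (0.74 ± 0.09, FDR 0.00099) and from WO to MO (0.82 ± 0.08, FDR 6.97e-05). From WY to WO *Pmp22* alone was lower by FDR (-0.26 ± 0.05, FDR 0.0492). The list of Schwann cell markers summed to 78.5 to 110 FPKM in MO and 88.7 to 93.8 in WO, with *Pmp22* the most abundant and *Prx* and *Egr2* among those under 1 FPKM on average. The part of these cells in the values was not tested.

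Within groups, the 10 genes did not vary as 1 block. Over the 16 mice, the deviations from the group means correlated at a Pearson r of 0.82 for *Sox10* and *Nkx2-2* and 0.81 for *Olig1* and *Olig2*, whereas *Pdgfra* had r from -0.58 (*Nkx2-2*) to 0.13 (*Lhfpl3*) with the other genes, and *Myrf* had 0.26 with *Sox10*. These coefficients are descriptions of 16 mice in which MO1 lies far out, and the mice share batches and the adjustment. Among the 13530 genes with a mean of at least 1, those whose deviations were most like *Pdgfra* were *Rab3gap1* (r = 0.92), *Trio* (0.89), *Nptx1* (0.89), *Fry* (0.89) and *Gm15800* (0.88). For *Olig2* they were *Sppl2b* (0.88), *Sod3* (0.88), *Prrt3* (0.87), *Mypop* (0.86) and *Myo1d* (0.84). For *Myrf* they were *Map4* (0.92), *Jakmip3* (0.89), *Cntn2* (0.88), *Dscaml1* (0.87) and *Fhdc1* (0.87).

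On GRCm38, the build to which the authors aligned (mm10), GENCODE M21 places *Olig2* at chr16:91225457-91228677 and *Olig1* at chr16:91269772-91271933, both on the plus strand with 41094 bases between them, and *Sox10* at chr15:79154908-79165240 and *Myrf* at chr19:10208272-10240748, both on the minus strand. *Pdgfra* lies at chr5:75152292-75198215 on the plus strand, *Lhfpl3* on the same chromosome at chr5:22746059-23275597 on the plus strand, and *Nkx2-2* at chr2:147177546-147194243 on the minus strand. *Cspg4* at chr9:56865033-56899870 and *Cspg5* at chr9:110243783-110262576, both on the plus strand, share chromosome 9, and *C1ql1* lies at chr11:102939264-102946688 on the minus strand.

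RefSeq (GRCm38.p6) gave the 300 bases around a transcript start for 5 of the 10 genes, *Pdgfra*, *Cspg4*, *Olig2*, *Nkx2-2* and *Lhfpl3*. The stretch of *Nkx2-2* holds the start of 1 of its 4 GENCODE transcripts and lies 7591 bases inside the outer end of the gene, whereas the other stretches hold the gene start. They were searched on both strands for ACAAAG, a core of SOX factor sites, and for CAGATG and CAGCTG, forms of the E-box of basic helix-loop-helix factors. Of 32851 promoters of that length, 18.7% held ACAAAG, 17.2% CAGATG and 16.3% CAGCTG. *Lhfpl3* held 2 matches, both CAGCTG, *Pdgfra* and *Nkx2-2* held 1 each, CAGATG on the other strand, and *Olig2* and *Cspg4* held none. A match is a description of letters only. *Pdgfra*, higher in MO than in WO by value, and *Olig2*, lower, are shown to set side by side the starts of genes with opposite signs. Capitals mark the match in *Pdgfra* (chr5:75152001-75152300, plus strand), and *Olig2* (chr16:91225300-91225599, plus strand) has none.
Pdgfra: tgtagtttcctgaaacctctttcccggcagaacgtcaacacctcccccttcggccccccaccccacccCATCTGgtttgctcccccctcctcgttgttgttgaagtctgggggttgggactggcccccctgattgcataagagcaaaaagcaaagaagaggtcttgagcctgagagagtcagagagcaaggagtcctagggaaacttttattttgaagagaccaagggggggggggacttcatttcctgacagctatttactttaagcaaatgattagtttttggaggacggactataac
Olig2: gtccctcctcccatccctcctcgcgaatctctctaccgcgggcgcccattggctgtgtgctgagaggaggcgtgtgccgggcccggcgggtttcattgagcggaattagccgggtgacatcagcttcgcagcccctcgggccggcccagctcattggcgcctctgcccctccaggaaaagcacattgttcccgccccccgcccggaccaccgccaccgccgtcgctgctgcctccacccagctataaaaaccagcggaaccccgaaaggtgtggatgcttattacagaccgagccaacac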

How the data were processed

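Spinal cord RNA of 16 mice was measured by stranded mRNA sequencing, 1 library per mouse. The authors made the deposited table of log2 values: Trimmomatic was used for cleaning, TopHat for alignment to mm10 and Cufflinks for FPKM, genes at an FPKM of 0 in many of the mice were removed, 1 was added, log2 was taken, and the 2 batches were adjusted with ComBat. Tool versions, the annotation and the covariates of ComBat are not given in the sources used here. After adjustment 915 values in 542 genes were below 0. Fragment numbers per gene are unknown, so precision rests on the spread between mice.

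Each comparison was fitted on its own groups, second minus first, with limma 3.58.1 in R 4.3.3 (lmFit and eBayes, two-sided, no covariate), with Benjamini-Hochberg FDR over 18167 genes. The difference of the age effects used all 16 mice. The procedure was tested on simulated data. A log2 fold change on log2(1 + FPKM) understates the change of low genes. FPKM were recovered by subtracting 1 after raising 2 to the value. Positions came from GENCODE M21 by symbol, with Python 3.11.15 and pandas 2.3.3.

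All 10 genes were named. Of the 14 lists of companions and cell type markers, the genes called in a comparison (at most 5 per list) and the most abundant gene were named, with genes averaging under 1 FPKM in the lists of cell types and the cell cycle and genes shared by lists. For *Pdgfra*, *Olig2* and *Myrf*, the 5 genes with the highest correlation of deviations were named. The 10 genes and the lists were chosen with earlier results of these data known. Results of some genes of the lists are not reported here. The summed level without *Mbp* was chosen after its values were seen. Alternatives were batch 1 only, batch as a term, all groups in 1 fit, a pseudocount of 0.1, quantile normalization, a minimum mean of 1, a prior with an intensity trend, treat against 1.2-fold, a replicate block and leaving out single mice.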

Additional observations from a re-analysis of the deposited data

Results flagged for a closer look

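In 2 of 20 groups of 5 mice (10 genes in WO and in MO), 1 mouse stood apart from the others by Dixon's ratio of its gap to the nearest mouse over the whole range, and chance alone marks about 1 in 20. *Sox10* in MO1 (5.06, against 5.43 to 5.47 in the other MO mice) had a ratio of 0.901. *Cspg5* in WO1 (4.66, against 4.75 to 4.78 in the other WO mice) had a ratio of 0.733. The change of *Myrf* with age differed between mutant and wild-type mice by -0.319 on the log2 scale (limma, FDR 0.0352), which is the only 1 of the 10 genes with an FDR at or below 0.05 for that difference, against 17.7% of all genes. That FDR rose above 0.05 in 12 of 23 alternatives, and by treat as well.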

How the results depend on the processing

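No gene past the threshold changed sign under any alternative. *Sox10* from MY to MO and *Myrf* from WO to MO kept an FDR at or below 0.05 in the alternatives other than treat. The other results with such an FDR lay near the threshold. By treat none of the 10 had such an FDR in any comparison, with 0.376 for *Sox10* from MY to MO. Genes called by FDR and 1.5-fold from MY to MO numbered 1 (*Olig1*) with batch 1 only and 1 with the replicate block, which held the same 6 mice, against 0, and from WY to WO 1 (*C1ql1*) with all groups and batch in 1 fit, against 0. Genes with an FDR at or below 0.05 numbered 2 from MY to MO with a pseudocount of 0.1 and 6 with all groups and batch in 1 fit, against 4, and 5 from WO to MO with all groups in 1 fit, with or without batch as a term, against 3. From WY to WO they numbered 0 with all groups in 1 fit, a pseudocount of 0.1 or the replicate block, against 1, and for the difference of the age effects 2 with batch 1 only and 0 with a pseudocount of 0.1, against 1. Leaving out 1 mouse at a time gave 1 to 4 genes from MY to MO, 1 to 4 from WO to MO, 0 to 1 from WY to WO (0 to 1 also by FDR and 1.5-fold, with *C1ql1* called without WO4 or WY2) and 0 to 2 for the age effects. Fewer mice entered these fits, those of batch 1 and those with the block other than WO to MO and WY to MY. From MY to MO, the same 6 mice without and with the block gave the same log2 fold changes for the 10 genes. There the FDR of *Olig1* was 0.0017 without and 0.0052 with the block, and that of *Myrf* 0.0047 and 0.0208. The cause of the other shifts was not tested. Over all genes, the number called with a pseudocount of 0.1 was 1483 against 890 from MY to MO, 1529 against 836 from WO to MO and 1548 against 1020 for the age effects. From WY to WO it was 73 with batch 1 only, 88 with all groups and batch in 1 fit, 3 with treat and 7 to 64 without 1 mouse, against 46. By treat 608 were called for the age effects, and from WY to MY at most 5 were called in any alternative, against 1. The labels number the mice of all groups. In no comparison did every same-numbered pair correlate above 0.1, and the main fits used no block. Deviations of same-numbered mice correlated at 0.085 to 0.177 for MY and MO and -0.207 to 0.091 for WO and MO. They correlated at -0.129 to 0.377 for WY and WO and -0.200 to -0.019 for WY and MY. Of the mice compared, 6 of 6, 1 of 10, 4 of 6 and 0 of 6 correlated best with their own number, so a pairing of MY and MO mice cannot be set aside. With the replicate block, 1108, 840, 63 and 1 of all genes were called in these 4 comparisons, and from WO to MO 2 of the 10 had an FDR at or below 0.05, against 3, with *Olig1* at 0.0965 and *Olig2* at 0.0635 and *Sox10* added. Depth per gene is unknown, which limits what can be said of *Cspg4* and other low genes.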
